A study of Mus musculus with 14 samples.

Results

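The 4 untreated RNA-sequencing libraries described here followed mouse tail fibroblasts from 1 h to 24 h after a scratch wound. They belong to the 14 libraries of a study on autologous micrograft (AMG), and they form its untreated time course, with 1 library each at 1, 5, 12 and 24 h, all of replicate 1. They were chosen by label, and genes were analysed where the mean normalised count over the 4 libraries was at least 10. This left 13475 of the 43472 genes listed in the table.

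The cells of every library were primary fibroblasts grown from tail tips of C57BL/6 mice after collagenase IV digestion, in DMEM GlutaMax with 10% FBS. A monolayer was scratched with a pipette tip and washed with PBS. Untreated cells then received no AMG, and AMG-treated cells received medium with a filtered extract of minced mouse skin. Age and sex of the mice were not given in the sources used here. No unscratched library is among the samples, so the 1 h library, itself already wounded, was the reference. The yardstick for a difference was the spread over untreated 5 h replicates 2 to 4, which lie in a second, separately scaled table. The sources do not say whether replicates came from separate cultures or mice, so this spread may be technical. With 1 library per time no test of time was possible, and every difference below is a description of these libraries.

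When a fibroblast sheet is wounded, cells at the edge lose contacts, spread and move into the gap. Growth factor receptors and ERK signalling switch on immediate early genes quickly, among them the AP-1, EGR and NR4A transcription factors, and these genes are shut off again by feedback phosphatases and by rapid decay of their messages. Later phases bring matrix proteins, proteases that clear a path, and, in cells that enter the cycle, genes of DNA replication and mitosis.

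The libraries carried fibroblast messages at every time. All 12 fibroblast markers passed the filter, and their summed level lay between 366739 and 512224 normalised counts. The red blood cell markers were at 0 reads in each of the 4 libraries, as were the muscle factors Myod1, Myf5 and Myog, the T cell marker Cd3e, and the keratinocyte keratins Krt14 and Krt1. Other members of the muscle, keratinocyte and leukocyte lists were present, with 3 of 12, 5 of 12 and 11 of 14 markers passing the filter. The summed muscle level lay between 795 and 2575, and the keratinocyte level between 597 and 896. The summed leukocyte level lay between 1346 and 2378. Read totals were, in the order of 1, 5, 12 and 24 h, 23785753, 13818438, 24566873 and 22938159, so that the floor of 3 reads stood at 2.64, 4.92, 2.20 and 2.30 normalised counts. Counting error alone gives a log2 difference between 24 h and 1 h a standard error of 0.59 at 10 normalised counts and of 0.19 at 100 normalised counts.

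The 5 h library stood apart before any biology was read from it. Genes of ribosomal proteins took 6.92% of its reads against 2.29% to 2.84% in the other 3 libraries of the course, and the transcript length at the middle of its reads was 2635 bases against 3305 to 3555. The difference between 5 h and 1 h moved with transcript length across genes. Of 10 groups of genes by length, the one with the shortest transcripts was 1.24 higher at 5 h by its median log2 difference, and the one with the longest was lower, at -0.91. At 24 h the same 2 groups stood at -0.15 and 0.03. Counts over gene lists are therefore given for 12 and 24 h, and a 5 h value of a single gene is the level in that library, with no correction unless one is named.

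**Figure D1:**
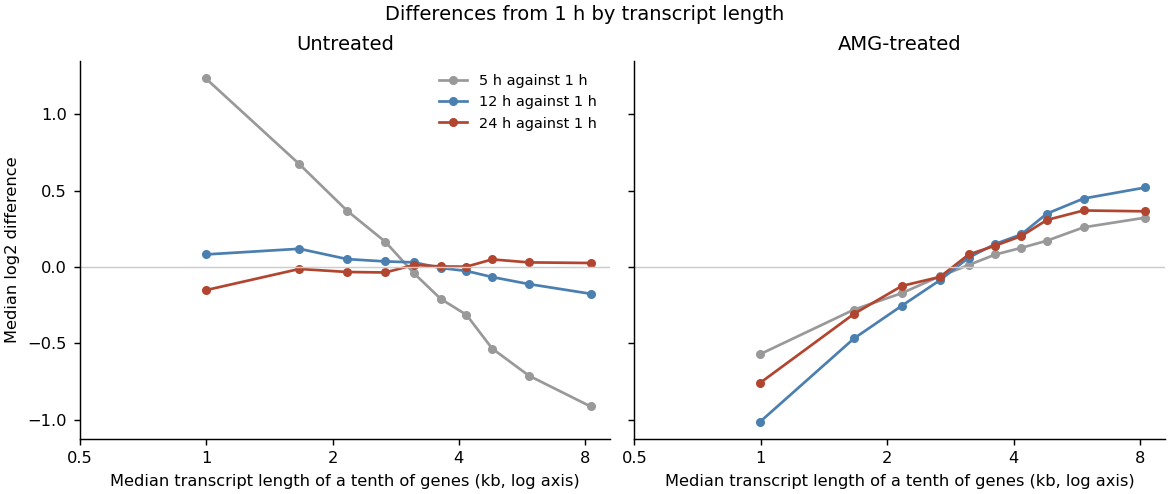
Median log2 difference from 1 h (vertical axis) of 10 groups of genes ordered by transcript length (horizontal axis, kb, log scale), in untreated libraries on the left and AMG-treated libraries on the right. The untreated 5 h line runs from 1.24 for the shortest to -0.91 for the longest transcripts the untreated 24 h line runs from -0.15 to 0.03, and the 3 AMG-treated lines climb with length.

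Of the 13475 genes, 747 (5.54%) were at least 2-fold higher at 12 h than at 1 h and 918 (6.81%) at least 2-fold lower, on the scale of log2(normalised count + 1). At 24 h, 969 genes (7.19%) were higher and 979 (7.27%) lower. The step from 12 to 24 h was small, with 369 genes (2.74%) higher and 263 (1.95%) lower. At 5 h the shares were 15.7% higher (2116 genes) and 16.5% lower (2227 genes). Scaling by the library total instead shifted the median difference of all genes by 0.22 at 12 h and 0.24 at 24 h. The split then became 1213 higher and 642 lower at 12 h, and 1587 higher and 666 lower at 24 h.

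Pairs of untreated 5 h replicates gave shares of the same order. Of 13005 genes, 12.7% differed at least 2-fold between replicates 2 and 3, 6.24% between replicates 2 and 4, and 13.6% between replicates 3 and 4. The number of genes past 2-fold at 12 or 24 h is thus about as large as the number that sets apart a pair of libraries of one time, and what follows turns on which genes they were and on how each gene varied among the replicates. Among 12748 genes measured in both tables, 650 were higher and 646 lower at 24 h by at least 2-fold and by more than the gene's own range over replicates 2 to 4. At 12 h these counts were 517 and 562.

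**Figure D2:**
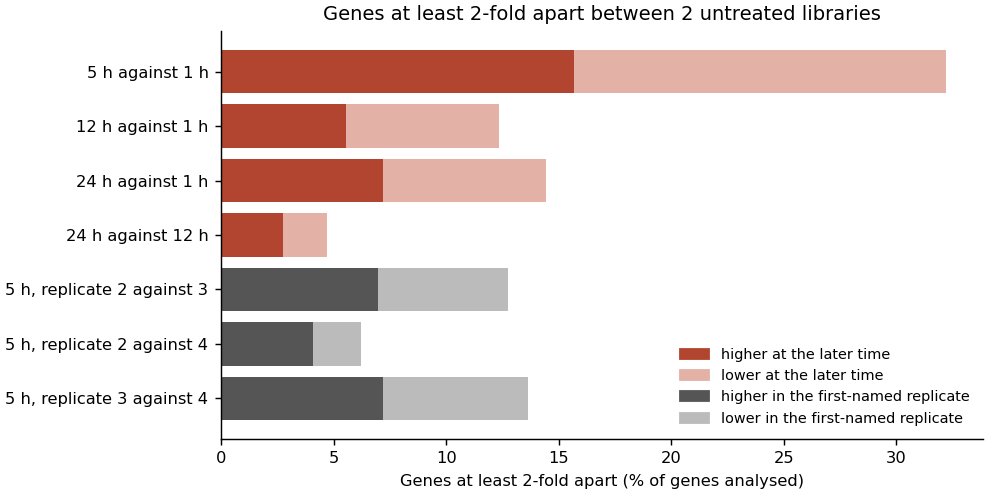
Percent of genes at least 2-fold apart (horizontal axis) between 2 untreated libraries, for contrasts over time (red, of 13475 genes) and between replicates 2 to 4 of the 5 h group (grey, of 13005 genes), with dark and light parts for higher and lower. The bars for 12 and 24 h against 1 h are about as long as the longest replicate bars, and the 5 h bar is more than 2-fold longer than either.

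Genes were next placed by the time of their highest value. The highest value fell at 1 h for 3457 genes, at 5 h for 4881, at 12 h for 1727 and at 24 h for 3410. The 4881 genes highest at 5 h had a median transcript length of 2140 bases against 3372 for all genes analysed, and the 6 with the widest margins before any correction were Pet100, Tmsb4x, Lsm7, Tmsb10, the pseudogene Rps12-ps3 and Atp5e. Tmsb4x, which encodes an actin-sequestering thymosin, measured 18681, 114426, 18613 and 11923 normalised counts in the same order, and Atp5e, a subunit of ATP synthase, 1435, 8850, 1709 and 1188. Pet100 and Lsm7 had the same peak, at 1501 and 810 against 213 and 142 or less at the other times. After correction for length the differences between 5 h and 1 h were smaller for all 6, at 1.95 in place of 2.62 for Atp5e, 1.29 in place of 2.61 for Tmsb4x, 0.86 in place of 2.38 for Tmsb10 and 0.79 in place of 2.58 for Rps12-ps3, and the ranking was then led by none of them but by Timm17a, Atp5l, Acer3 and Bcl7c. The length used was that of a gene's longest annotated transcript. It was 7280 bases for Timm17a, 6310 for Atp5l, 11340 for Acer3 and 6235 for Bcl7c, and their corrected values depend on that choice. Reads of Rps12-ps3 can come from its parent gene, so its values are uncertain. Higher at every step than at the one before were 493 genes, of which 248 were at least 2-fold higher at 24 h than at 1 h, and lower at every step were 603, of which 291 were at least 2-fold lower. With the length correction these counts were 654 higher and 795 lower at every step.

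The genes with the widest margin at 1 h were Dusp4, Fosb, Abtb2, Nr4a3, Gem and Kcnh1. Dusp4, a nuclear phosphatase that switches off MAP kinases, measured 2472 normalised counts at 1 h, then 134, 190 and 126 at 5, 12 and 24 h. Fosb, an AP-1 subunit, measured 638, 88.5, 68.8 and 62.0. Nr4a3, an orphan nuclear receptor, measured 1113, 164, 24.9 and 38.3. All 3 were low at every later time, and their differences at 24 h of -4.28, -3.34 and -4.83 exceeded their replicate ranges of 2.10, 0.56 and 0.67. Abtb2, Gem, a small GTPase, and the potassium channel gene Kcnh1 had the same course, at -3.05, -2.69 and -4.31. Kcnh1 overlaps Hhat on the other strand, so its counts may hold reads of that gene.

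Among genes lower at every step, 6 had the largest differences. Nfatc2, a calcium-regulated transcription factor, measured 902, 167, 13.2 and 9.19 at 1, 5, 12 and 24 h, a difference of -6.47 at 24 h against a replicate range of 0.85. Il11, a cytokine of the interleukin-6 family that fibroblasts make, measured 2886, 980, 354 and 157. Bmp2, a bone morphogenetic protein, measured 815, 326, 35.1 and 33.7, so that 12 and 24 h lay close together. Fibcd1, Slco4a1 and Kcnk10 stood at -5.19, -5.86 and -4.33 at 24 h, with replicate ranges of 1.86, 4.74 and 2.27.

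Few genes had a clear maximum at 12 h. Only 22 genes stood at least 2-fold above the other times there, against 333 at 1 h and 97 at 24 h. The widest margins were those of the clock genes Nr1d1 and Dbp, described with the clock below, and of Trib3, followed by Ccbl2, Chac1 and Tmem154, whose margins were under 2-fold. Trib3 and Chac1 are targets of the ATF4 and CHOP arm of the stress response. Trib3 measured 61.5, 62.3, 479 and 201 over the 4 times, and Chac1 58.0, 42.6, 323 and 178. Both differed by more at 12 h, 2.94 and 2.46, than over the replicates, 0.95 and 0.89. Ccbl2 and Tmem154 stood 1.24 and 0.85 above 1 h at 12 h.

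Highest at 24 h by the widest margins were Gda, Ggt5, Slc1a3, Serpina3g, Ednra and Angptl7. Gda, guanine deaminase, measured 240, 211, 251 and 1124, a difference of 2.22 against a replicate range of 0.14. Ggt5, a gamma-glutamyltransferase, measured 69.4, 63.9, 59.3 and 290, and the glutamate transporter gene Slc1a3 measured 103, 44.3, 98.8 and 348. Each of these 3 was level or low until 12 h and high only in the last library. The differences of Ggt5 and Slc1a3, 2.05 and 1.75, lay only a little above their replicate ranges of 1.80 and 1.60. Serpina3g, Ednra and Angptl7 reached 661, 649 and 708 at 24 h, but their differences of 1.72, 1.74 and 1.53 lay within their replicate ranges of 3.06, 2.94 and 3.35.

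The genes higher at every step were led by Ccl7, a monocyte chemokine, at 1020, 2560, 4776 and 7476 normalised counts, a difference of 2.87 against a replicate range of 2.18. Its first step, 1.33 from 1 to 5 h, was -0.07 after correction for length, while 12 and 24 h stayed at 2.12 and 3.03. Arhgap20, a GTPase-activating protein, measured 115, 121, 277 and 801. Ccnb2, cyclin B2, measured 43.9, 128, 162 and 232. Hykk and Pid1 stood at 2.63 and 2.10 at 24 h, above their replicate ranges of 1.49 and 1.14. Lgr5, a receptor that amplifies Wnt signals, measured 81.7, 170, 236 and 456, and its difference of 2.46 was below its replicate range of 3.34.

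**Figure D3:**
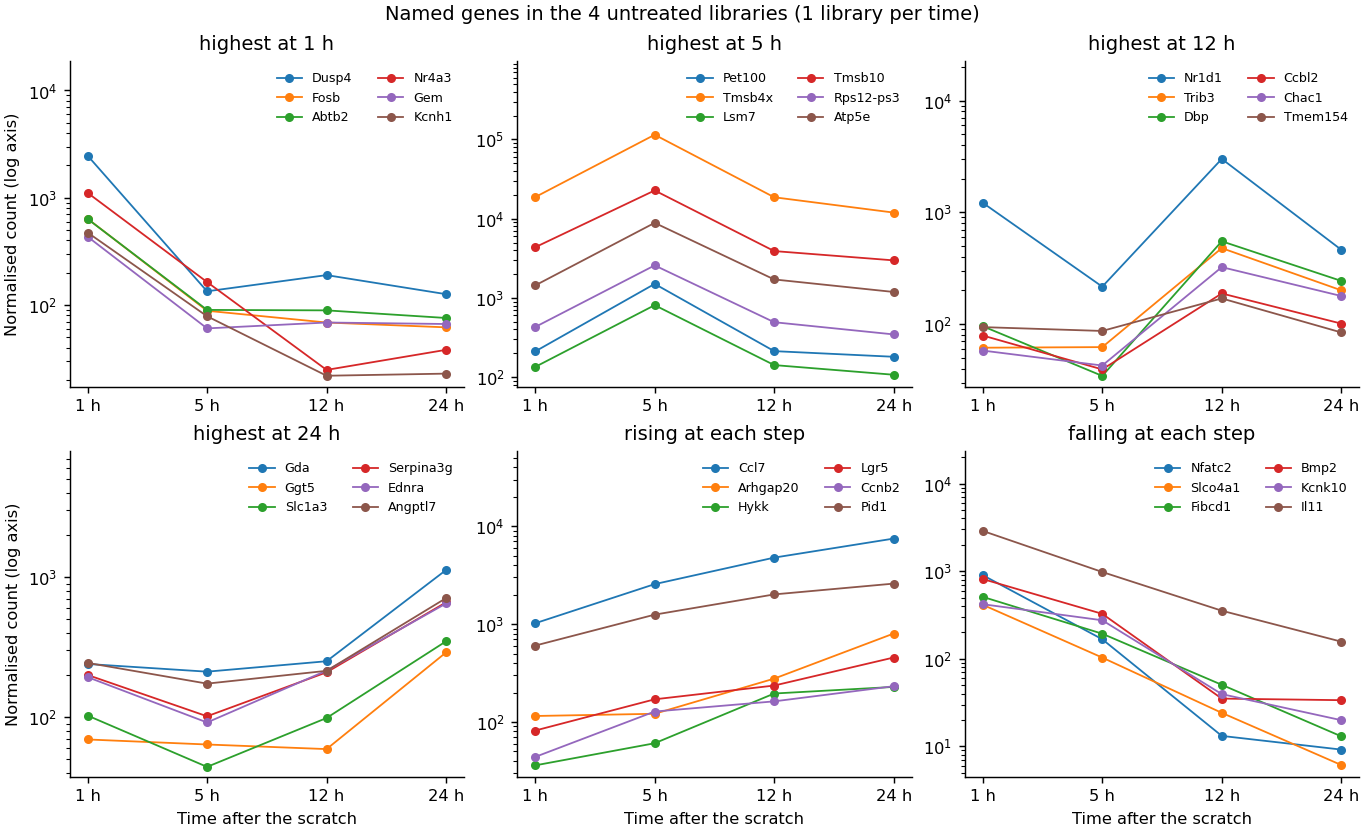
Normalised counts (vertical axes, log scale) of the 36 named genes in the 4 untreated libraries (horizontal axes, the times evenly spaced), with 6 genes in each panel and 1 library per point. Genes highest at 1 h are low from 5 h on, those highest at 5 h all have the same peaked shape, and Nfatc2 goes from 902 to 9.19.

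To read the course by function, 26 lists of genes were followed. They hold 544 entries, of which 533 passed the filter, and 11 of the 26 lists had a median difference at 24 h of 0.5 or more in size. In 9 of these it was negative and in 2 positive. Scaled by library totals, the balance was 6 negative and 5 positive, with growth factors (-0.36), late AP-1 genes (-0.37) and ribosome biogenesis (-0.40) under the bound and Wnt genes (0.72), FoxO genes (0.59) and p53 targets (0.51) past it. Without members that reached the minimum mean through 1 library only, growth factors (-0.495) were also under the bound and Wnt genes (0.505) past it. The median over all 13475 genes was -0.01 at 24 h and -0.00 at 12 h. Beside the counts of members below, the shares of all genes were 5.54% higher and 6.81% lower at 12 h. At 24 h they were 7.19% and 7.27%.

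**Figure D4:**
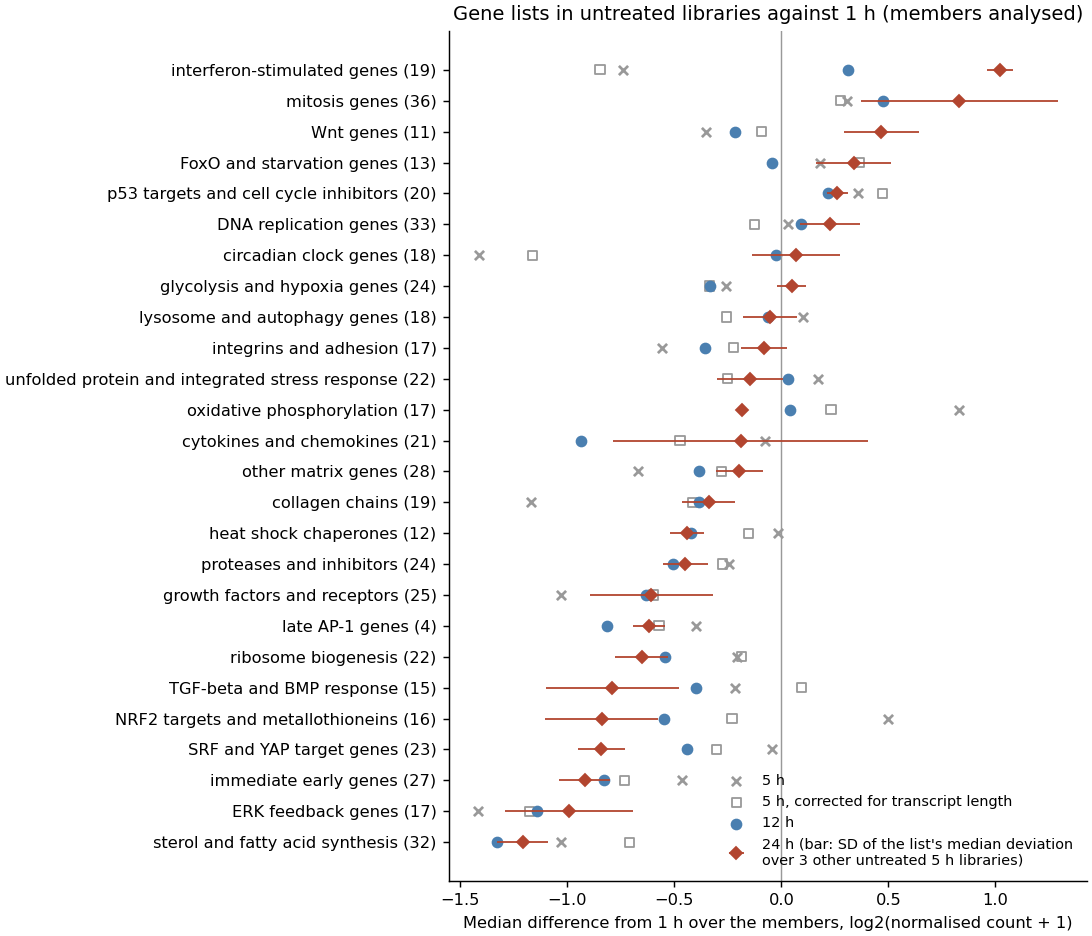
Median log2 difference from 1 h (horizontal axis) over the members of 26 lists at 5 h (crosses, and open squares after correction for transcript length), 12 h (blue circles) and 24 h (red diamonds), with the number of members analysed in brackets. The bars are the SD of each list's median deviation over 3 other untreated 5 h libraries; sterol genes lie at -1.21 and interferon-stimulated genes at 1.02 at 24 h.

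Immediate early genes were lower after 1 h. Their median difference was -0.83 at 12 h and -0.92 at 24 h, with 8 of 27 members at least 2-fold lower at 12 h and 0 higher, and 12 lower and 1 higher at 24 h. Each of these 13 at 24 h lay beyond its replicate range. Among all genes 6.81% were lower at 12 h, and 7.27% lower and 7.19% higher at 24 h. Nr4a1, a sister of Nr4a3, measured 7479, 1413, 724 and 926. Atf3, a stress-induced repressor, measured 169, 19.7, 26.3 and 22.2, and Csrnp1 1608, 393, 285 and 240. These 3 were high only in the 1 h library. The exception was Egr1, the best known zinc finger factor of the group, at 724, 1075, 1126 and 2685. It was highest in the last library, by 1.89 against a replicate range of 1.00. Fos itself was low throughout, at 132, 129, 130 and 220.

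The AP-1 subunits had different courses. Fosl1, which encodes Fra-1, measured 3079 at 1 h and 1498, 1297 and 1266 later, a difference of -1.28 at 24 h against a replicate range of 0.15. Fosl2 measured 7756, 2862, 3524 and 4754. Jdp2, a repressor that pairs with Jun, went the other way, at 658, 1616, 1523 and 1431, a difference of 1.12 against 0.19. Jun measured 2174, 1564, 2801 and 3035 and Junb 3667, 3149, 1813 and 2530, both within 2-fold of 1 h at 24 h. Of the 4 late AP-1 genes analysed 1 was at least 2-fold higher and 1 lower at 24 h, with a median of -0.62.

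The CArG box, the site bound by serum response factor (SRF), was looked for on both strands in the 250 bases before each start site in RefSeq promoters of build GRCm38.p6, together with the other motifs named below. It stood in 6 of 31 promoters of immediate early genes (19.4%) and in 6 of 20 of SRF and YAP target genes (30%), against 1.47% of all 32851 promoters. A gene can have several promoters that share a site, as Egr2 does. Counted by gene, a match was held by 3 of 22 immediate early genes and 5 of 18 SRF and YAP target genes. Promoters were found for only 22 of the 27 and 18 of the 23 members. The stretches of the member with a match and the widest range over time are shown for both lists, 5′ to 3′ on the strand of the gene with the CArG boxes in capitals. A match is a description of these letters only, and 0 matches of different motifs overlapped in any promoter searched.
Srf, chr17:46556185-46556274, minus strand: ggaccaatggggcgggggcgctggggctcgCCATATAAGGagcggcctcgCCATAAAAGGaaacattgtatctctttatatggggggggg
Vcl, chr14:20929148-20929210, plus strand: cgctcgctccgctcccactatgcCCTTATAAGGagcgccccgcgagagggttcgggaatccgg

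The genes behind these stretches were lower at later times. Srf measured 2761, 1333, 1554 and 1213, a difference of -1.19 at 24 h against a replicate range of 0.33. Vcl, which encodes the focal adhesion protein vinculin, measured 43185, 21634, 18473 and 17204, a difference of -1.33 against 0.43. The 23 SRF and YAP target genes, most of them genes of the actin cytoskeleton, had a median of -0.44 at 12 h and -0.84 at 24 h, with 22 of 23 below 1 h at 24 h and 8 at least 2-fold lower. Actg1, cytoplasmic gamma actin, measured 76472, 83889, 50082 and 36352, a difference of -1.07 against a replicate range of 0.09. Tagln, transgelin, measured 73621, 125226, 55646 and 35892, and Ctgf, a secreted YAP target, 55484, 58950, 31659 and 15745. These 3 were lower from 12 h on, and their 5 h differences of 0.13, 0.77 and 0.09 were -0.39, 0.03 and -0.17 after correction for length. Markers shared with muscle and pericytes were also lower, with Des at 525, 623, 231 and 85.0 and Cspg4 at 3183, 1516, 581 and 456. The part of such cells in this result was not tested, and in bulk RNA fewer cells of a type and less RNA per cell cannot be told apart.

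Feedback genes of ERK signalling followed the immediate early pattern. Their median was -1.14 at 12 h and -0.99 at 24 h, with 11 of 17 members at least 2-fold lower at 12 h and 8 at 24 h, all beyond their replicate ranges, and 1 higher at each time. The shares of all genes lower were 6.81% at 12 h and 7.27% at 24 h. Dusp5, an ERK phosphatase, measured 2510, 706, 588 and 381. Dusp10 measured 1295, 248, 311 and 250, and Spry2, a Sprouty inhibitor of receptor signalling, 2162, 961, 544 and 584. Errfi1, an inhibitor of the EGF receptor, measured 13916, 2493, 1925 and 3343. All 4 were highest at 1 h. Spry1 was the one higher member, at 46.6, 83.6, 147 and 151, and its difference of 1.67 lay within its replicate range of 2.25. Etv5, an ETS factor that is itself an ERK target, stood at 844, 485, 1005 and 1390.

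Hbegf, a ligand of the EGF receptor, measured 11814, 5786, 3535 and 1905, and Ereg, another, 4404, 729, 1033 and 1051. Both were highest at 1 h. Areg had 71 reads at 1 h, or 62.4 normalised counts, and 0 reads at 24 h, which is at least 27.2-fold lower against the floor of 3 reads. It reached the minimum mean only through the 1 h library, so that its lower level later is in part set by the filter. Of 25 growth factors and receptors, 9 were at least 2-fold lower and 1 higher at 12 h, and 10 lower and 2 higher at 24 h. The median at 24 h was -0.61, or -0.495 without Areg, which is under the bound of 0.5 in size. Vegfa, the angiogenic factor, measured 11350, 2801, 1933 and 2354, a difference of -2.27 against a replicate range of 0.45. Inhba, the activin A subunit, measured 18647, 1749, 4583 and 3568, and Tgfb1 2500, 2375, 905 and 673. Angpt1, a ligand that steadies vessels, was higher at 24 h, at 1026, 734, 1091 and 2630, by 1.36 within a replicate range of 1.74.

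Of 21 cytokine and chemokine genes, 1 was higher and 9 lower at 12 h (median -0.94), but 4 were higher and 5 lower at 24 h. At 12 h 6.81% of all genes were lower, and 4 of the 9 lay beyond their replicate range. The median of the 21 at 24 h was -0.19, or 0.05 when scaled by library totals. Csf3, Cxcl10 and Cxcl2 reached the minimum mean through 1 library only. Of the other 18 members 3 were higher and 4 lower at 24 h. The group therefore had no common course. Its median deviation varied among replicates 2 to 4 with an SD of 0.60 over the 16 members measured there. Ptgs2, the inducible cyclooxygenase, measured 16262, 6801, 5980 and 4903, a difference of -1.73 against a replicate range of 0.32. Ccl2 measured 2195, 1477, 3144 and 5417 and, like its neighbour Ccl7, was highest in the last library, although its difference of 1.30 lay within its replicate range of 2.25. Il1b and Tnf did not reach the filter, at 3.52 normalised counts or less at every time.

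A minority of protease genes was lower at 12 and 24 h. Of 24 proteases and inhibitors 7 were at least 2-fold lower at 12 h and 7 at 24 h, with 0 and 1 higher, and the medians were -0.51 and -0.45, or -0.29 and -0.20 when scaled by library totals. Plau, urokinase, measured 9088, 4768, 1240 and 1994, and its receptor gene Plaur 6344, 6602, 2413 and 969. Among the matrix metalloproteinases, Mmp10 measured 804, 1095, 168 and 42.9, Mmp3 4030, 6529, 2688 and 1278, and Mmp13 1162, 1260, 495 and 499. All 3 were lower from 12 h on, and their 5 h differences after correction for length were -0.21, 0.09 and -0.07. Adamts5, an aggrecanase, was the one gene higher at 24 h, at 2544, 1146, 3327 and 5508.

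The AP-1 site, read as TGAGTCA or TGACTCA, stood in 4 of 16 promoters of proteases and inhibitors (25%), those of Mmp10, Plaur, Mmp3 and Mmp13, and in 4 of 17 of cytokines and chemokines (23.5%), against 4.46% of all promoters. The member with the widest range over time is shown for each list, with the site in capitals.
Mmp10, chr9:7502249-7502315, plus strand: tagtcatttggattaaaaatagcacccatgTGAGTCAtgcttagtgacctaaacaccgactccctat
Il11, chr7:4778203-4778269, minus strand: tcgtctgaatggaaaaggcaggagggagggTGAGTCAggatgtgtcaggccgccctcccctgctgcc
The differences between 24 h and 1 h were -4.20 for Mmp10 and -4.19 for Il11, against replicate ranges of 1.06 and 1.70. The NF-kB site stood in 6 of 17 promoters of cytokines and chemokines (35.3%), against 3.90% of all.

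Matrix genes differed less from 1 h. At 24 h, where 7.19% of all genes were higher and 7.27% lower, 0 of 19 collagen chains were at least 2-fold higher. Only 1 was lower, and the median was -0.34. That one was Col5a3, at 14107, 5784, 5393 and 4603. Col1a1 measured 150551, 81646, 134964 and 115254. The cause of the low 5 h values was not tested. The collagen median at 5 h was -1.17 before and -0.42 after the correction for length. Scaled by library totals it was -1.28, against 0.23 with replicates 2 to 4. Of 28 other matrix genes 4 were lower at 24 h and 0 higher. Tnc, tenascin C, measured 104454, 37024, 35920 and 23701, and Has2, a hyaluronan synthase, 6900, 3447, 1488 and 2050, with differences of -2.14 and -1.75 against replicate ranges of 0.68 and 0.37. Fn1 was near its 1 h level again at 24 h, at 130617, 39796, 82605 and 123887.

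Of 17 integrin and adhesion genes 3 were lower and 1 higher at 24 h, against 7.27% and 7.19% of all genes. Itga5, the fibronectin receptor chain, measured 55722, 16076, 15292 and 13015, a difference of -2.10 against a replicate range of 0.26. Itgb3 measured 3187, 1759, 872 and 535, and Cd44, the hyaluronan receptor, 32976, 31677, 17888 and 15151. Of 15 genes of the TGF-beta and BMP response 5 were lower and 2 higher at 24 h, with a median of -0.79. Smad7, the inhibitory Smad, measured 2970, 2421, 1608 and 1064 and Tgfbi 3585, 2477, 1523 and 1086. Bmp4 was higher, at 145, 379, 412 and 574, by 1.98 within a replicate range of 2.05, while Bmp2 was among the genes with the largest negative differences.

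Genes of sterol and fatty acid synthesis were lower by their medians at 12 and 24 h. These genes are switched on together by SREBP factors when membranes are short of cholesterol. All 32 members were below 1 h at 24 h, 22 were at least 2-fold lower at 12 h and 19 at 24 h, 0 were higher at either time, and the medians were -1.33 and -1.21. The share of all genes 2-fold lower at 24 h was 7.27%. Idi1, isopentenyl diphosphate isomerase, measured 4315, 4194, 884 and 1068. Insig1, the sterol sensor that is itself an SREBP target, measured 4048, 1424, 1276 and 1140. Cyp51, a demethylase late in cholesterol synthesis, measured 7482, 5907, 1587 and 2162. Each was highest at 1 h, and the differences at 24 h of -2.01, -1.83 and -1.79 exceeded the replicate ranges of 0.10, 0.62 and 0.33. The list median at 5 h was -1.03, or -1.15 when scaled by library totals and -1.31 when replicates 2 to 4, scaled likewise, took the place of that library.

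The sterol regulatory element, read as TCACNCCAC, stood in 1 of 27 promoters of the list (3.70%), against 1.05% of all. That promoter belongs to Hmgcs1, HMG-CoA synthase, which measured 7714, 1490, 1946 and 2320, and its stretch is shown with the element in capitals.
Hmgcs1, chr13:119690184-119690252, plus strand: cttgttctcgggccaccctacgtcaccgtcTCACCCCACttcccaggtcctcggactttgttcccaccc

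Interferon-stimulated genes, which encode antiviral proteins, were higher late. The median of 19 members was 0.31 at 12 h and 1.02 at 24 h, with 3 at least 2-fold higher at 12 h and 10 at 24 h and 0 lower, against 7.19% of all genes higher at 24 h. Of the 10, 8 lay beyond their replicate range. Rsad2 and Mx2 reached the minimum mean only through the 24 h library, so that their high level there is in part set by the filter. Of the other 17 members 8 were higher and 0 lower at 24 h, with a median of 0.86. Ifit1 measured 82.6, 32.8, 59.3 and 218, Ifit3 48.3, 16.4, 57.8 and 149, and Usp18, a brake on interferon signalling, 30.8, 18.03, 47.6 and 92.7. The 3 genes were highest at 24 h, and lowest at 5 h, with or without correction for length. Irf1 was higher at each step, at 203, 374, 553 and 642. The leukocyte marker list had its median at -0.24 at 24 h, with 0 of 11 members at least 2-fold higher and 3 lower. Its median deviation varied among replicates 2 to 4 with an SD of 2.16 over the 10 members measured there. The part of leukocytes in the interferon values was not tested.

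Genes of mitosis were higher, from a low level. All 36 members were above 1 h at 24 h and 13 were at least 2-fold higher, with 0 lower, the median being 0.47 at 12 h and 0.83 at 24 h. The SD of the list's median deviation among replicates 2 to 4 was 0.46, and 10 of the 13 lay beyond their own replicate range. Nusap1, a spindle protein, measured 32.5, 93.4, 105 and 161, a difference of 2.27 against a replicate range of 0.42. Bub1, a checkpoint kinase, measured 46.6, 27.9, 82.7 and 123, and Nek2 29.9, 55.7, 95.9 and 97.3. Kif20a measured 204, 166, 467 and 459. These 4 genes were clearly above their 1 h level at both later times. With 5 h taken from replicates 2 to 4, scaled by library totals, the list stood 2.47 above 1 h, higher than at any time within the course, so libraries of one time differed more in these genes than the 4 times did.

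DNA replication genes did not share that course. Of 33 members 0 were at least 2-fold higher and 0 lower at 24 h, and the median was 0.23. Pcna, the polymerase clamp, measured 852, 1626, 675 and 535, and Cdc6, which loads the helicase, 69.4, 8.20, 46.1 and 85.0. Of 20 p53 targets and cell cycle inhibitors 3 were higher and 0 lower. Sesn2 measured 878, 1164, 1733 and 1928 and Trp53inp1 1067, 1874, 1805 and 2669, both beyond their replicate ranges at 24 h, while Cdkn1a, the p21 inhibitor, stood at 18707, 20941, 16242 and 14627.

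Different motifs were looked for in the promoters of the 2 cell cycle lists, so the lists cannot be compared by them. The CCAAT box stood in 26 of 32 promoters of mitosis genes (81.2%) against 33.8% of all, and the CHR element, read as TTTGAA, in 12 of 32 (37.5%) against 16.0% of all. The E2F site, read as TTTCCCGC, TTTGGCGC or TTTCGCGC, stood in 7 of 33 promoters of DNA replication genes (21.2%) against 1.53% of all. The member with a match and the widest range over time is shown for the first and the last, with the motif in capitals on either strand.
Ccnb2, chr9:70421555-70421671, minus strand: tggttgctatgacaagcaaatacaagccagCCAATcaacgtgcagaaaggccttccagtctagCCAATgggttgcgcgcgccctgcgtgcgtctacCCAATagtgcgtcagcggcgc
Cdc6, chr11:98907983-98908050, plus strand: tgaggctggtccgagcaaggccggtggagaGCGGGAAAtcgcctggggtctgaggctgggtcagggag
The 3 CCAAT boxes of Ccnb2 end 82, 49 and 16 bases before the start site.

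Clock genes varied with time rather than in one direction. The mammalian clock runs as a feedback loop in which CLOCK and ARNTL drive the Per, Cry and Nr1d genes, whose products shut the loop off again, and a change of medium or serum can synchronise it in cultured fibroblasts. At 12 h 4 of 18 members were at least 2-fold higher and 4 lower, at 24 h 3 higher and 4 lower. Nr1d1, the REV-ERB alpha repressor, measured 1217, 216, 3006 and 463. Its level swung by 3.79 between 5 and 12 h. The replicate range of 0.33 comes from other 5 h libraries and does not measure how far this one departs from them. Its paralogue Nr1d2 measured 575, 308, 1078 and 601, and Dbp, an output factor of the clock, 95.8, 34.4, 551 and 244. All 3 were lowest at 5 h and highest at 12 h. Arntl, which REV-ERB represses, was highest at 1 h, at 1815, 644, 569 and 652, and Cry1 lowest at 12 h, at 523, 390, 160 and 304. Per2 measured 254, 31.1, 157 and 300 and Per3 148, 27.9, 239 and 325, both highest at 24 h. Nr1d1 and Dbp overlap genes on the other strand, Thra and Sphk2, and the strand setting of the counting is not given in the sources used here.

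The low 5 h values of the clock were not seen in replicates 2 to 4. The median of the list at 5 h was -1.41, and -1.16 after correction for length. Scaled by library totals it was -1.52, against -0.05 with replicates 2 to 4 in place of that library on the same scale. In the table of those replicates, whose scale differs, Nr1d1 stood at 1050, 837 and 914. Of 21 promoters of clock genes 6 held the E-box CACGTG (28.6%) against 6.02% of all, and 1 held the D-box TTATGTAA or its form with C as the fourth letter, against 0.93% of all. That one is the promoter of Per3, whose 2 matches are shown in capitals.
Per3, chr4:151044786-151044900, minus strand: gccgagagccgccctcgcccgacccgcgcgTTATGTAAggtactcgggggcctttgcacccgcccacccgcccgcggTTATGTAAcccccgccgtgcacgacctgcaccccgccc

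Stress genes split into arms. Of 22 genes of the unfolded protein and integrated stress response 3 were higher at 12 h, namely Trib3, Chac1 and Herpud1, and 0 lower. Herpud1, which helps to clear misfolded proteins from the endoplasmic reticulum, measured 498, 661, 1428 and 1200. Atf4 itself stood at 5889, 8779, 6087 and 4584. Of 16 NRF2 targets and metallothioneins 6 were lower at 12 h and 6 at 24 h, all beyond their replicate ranges, and 0 higher, with medians of -0.55 and -0.84. Srxn1, sulfiredoxin, measured 16243, 10331, 2532 and 2352, Txnrd1, thioredoxin reductase, 18076, 13250, 5561 and 4958, and Mt2, a metal-binding metallothionein, 1528, 4103, 330 and 338. In these libraries the 3 were higher at 1 and 5 h than from 12 h on. The list median at 5 h was 0.50, but -0.23 after correction for length. With 5 h from replicates 2 to 4, scaled by library totals, it was -0.63. Of 12 heat shock chaperones only Hspb1 was 2-fold lower at 24 h, at 4960, 8322, 3196 and 1501.

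Growth-related and metabolic lists differed from each other. All 22 genes of ribosome biogenesis were below 1 h at 24 h, but only 3 by 2-fold, and the median was -0.65. Nop56 measured 2756, 2991, 1842 and 1213, a difference of -1.18 against a replicate range of 0.12. Of 17 genes of oxidative phosphorylation 0 were 2-fold apart at 12 or 24 h. Their median of 0.83 at 5 h was 0.23 after the length correction. Scaled by library totals it was 0.71, against -0.02 with replicates 2 to 4. Of 24 glycolysis and hypoxia genes 3 were higher and 3 lower at 24 h, against 7.19% and 7.27% of all genes. Adm, adrenomedullin, measured 1946, 8769, 4841 and 4925 and Bnip3, a mitophagy receptor, 1339, 1672, 1045 and 3093, while the glucose transporter gene Slc2a1 measured 10982, 3640, 2749 and 3112. Of 18 lysosome and autophagy genes 0 were 2-fold apart. Of 13 FoxO and starvation genes 3 were higher at 24 h, all beyond their replicate ranges, among them Foxo3 at 573, 634, 827 and 1204 and Sesn3 at 105, 120, 223 and 289. Of 11 Wnt genes 2 were higher and 3 lower, with the nuclear factor gene Tcf7 at 291, 218, 69.5 and 73.5.

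The AMG-treated libraries of replicate 1 were set beside this course as a second series from the same replicate number that shares no library with it. Their 1 h library was itself rich in short transcripts, with 5.04% of reads in ribosomal protein genes. In that course 16.8% of genes were higher and 17.7% lower at 12 h against 1 h, and 16.1% and 16.6% at 24 h. The part of the 1 h library in these shares was not tested. Of the 979 genes lower at 24 h in untreated cells, 579 (59.1%) were also lower in the AMG-treated course, where 16.6% of all genes were, and 49 were higher. Of the 969 genes higher at 24 h, 439 (45.3%) were also higher and 116 were lower. Those counts are shares of 25.9% and 20.2% of the genes lower and higher in the AMG-treated course. At 12 h, 481 of 918 lower genes (52.4%) were also at least 2-fold lower with AMG, and 52 were at least 2-fold higher. Of 747 higher genes 352 (47.1%) were also at least 2-fold higher, and 65 were at least 2-fold lower. The 5 h contrast differed. There 171 of 2116 higher genes (8.08%) were also higher with AMG and 495 (23.4%) were lower. Of 2227 lower genes 218 (9.79%) were also lower and 372 (16.7%) were higher. Among all genes 11.6% were higher and 10.2% lower with AMG at 5 h against 1 h. A shared direction was thus no more frequent than among all genes.

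Sterol genes were lower in both courses. Their median at 24 h was -1.21 in untreated and -2.0 in AMG-treated libraries, and Idi1 measured 9803, 3105, 144 and 221 with AMG against 4315, 4194, 884 and 1068 without. Immediate early genes stood at -0.92 and -2.18, both without correction for length. Nr4a1, a member of that list, measured 22307 at 1 h with AMG against 7479 without. Interferon-stimulated genes differed in time. Ifit1 measured 130, 28.6, 1743 and 172 with AMG, a single peak at 12 h, against 82.6, 32.8, 59.3 and 218 without. Mmp3 had opposite courses, at 17282, 37018, 144047 and 171791 in the AMG-treated and 4030, 6529, 2688 and 1278 in the untreated course. With 1 library per group and time none of these differences between courses could be tested.

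**Figure D5:**
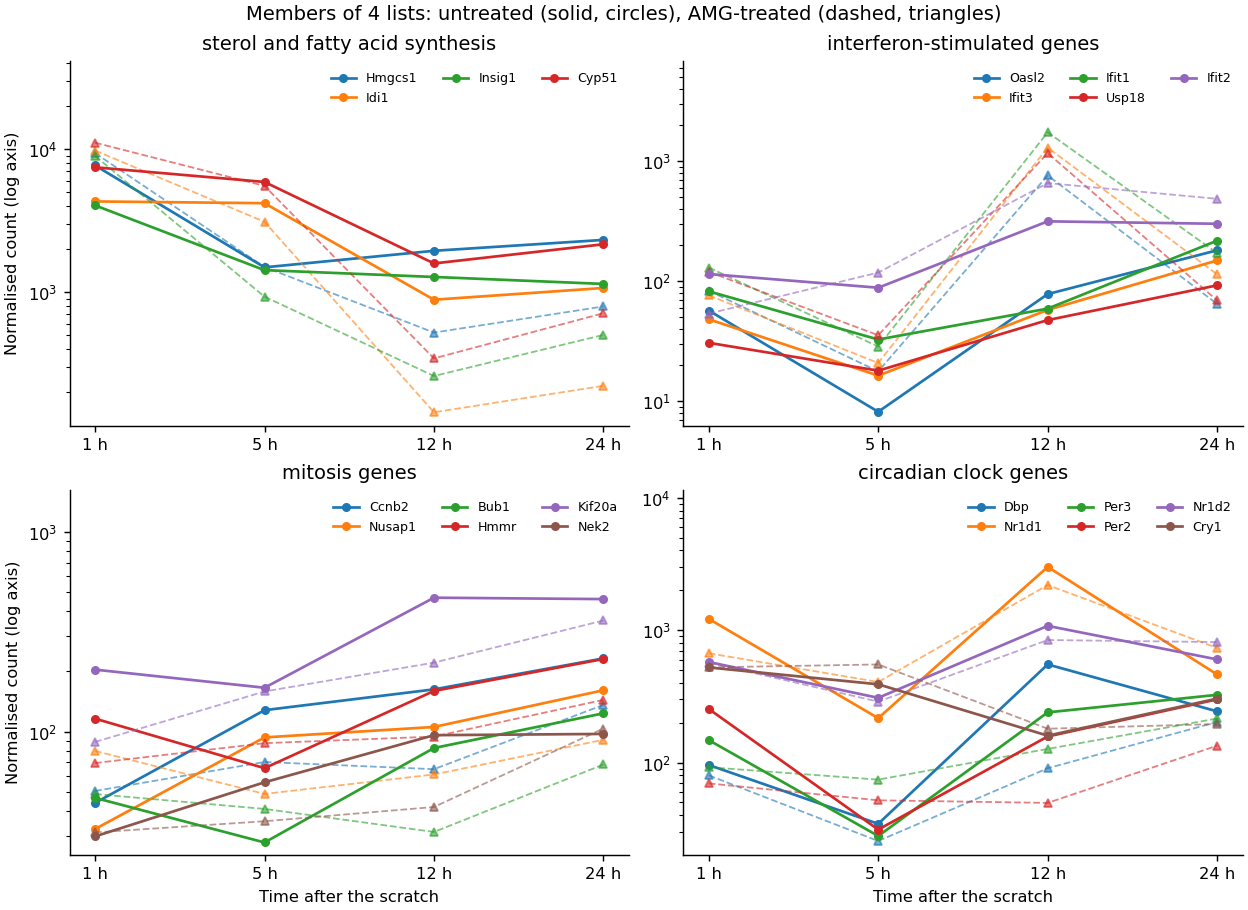
Normalised counts (vertical axes, log scale) of 4 to 6 members each of 4 lists over the 4 times (horizontal axes, evenly spaced), in untreated libraries (solid lines, circles) and AMG-treated libraries (dashed lines, triangles), with 1 library per point. Sterol genes are lower at 12 and 24 h in both courses, interferon-stimulated genes are highest at 24 h without AMG and at 12 h with it for Ifit1, Ifit3, Oasl2, Usp18 and Ifit2, except that untreated Ifit2 is level from 12 to 24 h, and Nr1d1 is highest at 12 h in both.

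Markers of other cells were present at low levels. Of 12 keratinocyte markers 5 passed the filter, with a summed level between 597 and 896 normalised counts at the 4 times, and 3 of the 5 were at least 2-fold lower at 12 h. Skeletal muscle markers, of which 3 of 12 passed, summed to 2575, 2126, 996 and 795, and the 4 pericyte and smooth muscle markers to 4590, 2041, 1240 and 1289. Both sums were highest at 1 h. Acta1, skeletal muscle actin and an SRF target, measured 2012, 1485, 754 and 675. Of 6 endothelial markers 1 passed, of 6 adipocyte markers 2, of 6 cartilage and tendon markers 5, and of 9 melanocyte and Schwann cell markers 3. The cartilage and tendon sum lay between 3186 and 4137 and the melanocyte and Schwann cell sum between 108 and 218. The adipocyte sum was 683, 1439, 542 and 476, and the one endothelial gene stood between 57.4 and 111.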

How the data were processed

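RNA-sequencing of 14 libraries gave the 2 deposited tables used here, with 8 libraries of replicate 1 in the first and 6 of replicates 2 to 4 in the second. The deposited values are a signal made by the authors, read counts per gene divided by DESeq size factors within each table, and levels are not comparable between tables. Per the labels, libraries came from a stranded mRNA kit. The submitters' processing notes name FastQC 0.11.5, TopHat2 2.0.13, SAMtools 0.1.19.24, HTSeq 0.5.3p3, DESeq and build mm10. Which annotation was counted, and whether strand was used in counting, is not given in the sources used here.

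Dividing the values of a library by its smallest step gave whole reads for 100% of values within 0.1, and read totals and the floor of 3 reads come from these. No count test was run on them, because each time holds 1 library. Genes with a mean of at least 10 over the 4 untreated libraries were analysed on log2(normalised count + 1), which understates differences of low genes, and a gene was counted as higher or lower at a difference of at least 1. Intervals from counting cover counting error only. Lengths were those of each gene's longest transcript in the GENCODE annotation of GRCm38, found for 13304 genes (98.7%). The length correction subtracted a lowess fit with a fraction of 0.3. Promoters, 250 bases before the start, came from RefSeq, GRCm38.p6.

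Named were, among genes with a mean of at least 100 and leaving out ribosomal protein and clone-named genes, the 6 with the widest margin at each time, the 6 largest gains among genes higher at every step, the 6 largest losses among genes lower at every step, and members of the gene lists. Of each list, the members with the widest range over the 4 times were named first, so named members do not stand for their list. Members and lists were chosen with earlier results of these data known. The alternatives were other pseudocounts, minimum levels, scalings, the length correction, 5 h from replicates 2 to 4, leaving out the 5 h library and a wider fold, with the replicate range and the removal of genes that reach the minimum mean through 1 library only added after seeing the data. The number of per-sample columns left unused was 0. Calculations used Python 3.11.15 with pandas 2.3.3, numpy 2.4.6, scipy 1.17.1 and statsmodels 0.14.6, and R 4.3.3 with edgeR 4.0.16 for TMM factors, and were checked on simulated data.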

Additional observations from a re-analysis of the deposited data

Results flagged for a closer look

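Among the 4 untreated 5 h libraries, the one of the time course stood apart on 2 of 6 measures searched. Its share of reads in ribosomal protein genes was 6.92%, against 2.25% to 2.79% in replicates 2 to 4, and the transcript length at the middle of its reads was 2635 bases, against 3565 to 3693. Replicate 4 stood apart by its total of 34696529 reads. Chance alone sets apart about 1 in 20 such groups of samples on a measure.

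Of the 36 genes named by margin or step, 3 differed between 24 h and 1 h by at least 2-fold in both courses with opposite signs. Ggt5 stood at 2.05 without and -4.92 with AMG, Slc1a3 at 1.75 and -3.24, and Lgr5 at 2.46 and -3.43. With 1 library per group and time these differences were not tested.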

How the results depend on the processing

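No paired analysis was possible because each time holds 1 library and no test was run. With a pseudocount of 10, 456 genes were higher at 12 h. Without a minimum level, 3857 genes were higher and 3946 lower at 5 h, 2147 and 2262 at 12 h, and 2446 and 2329 at 24 h, and 5398, 3406 and 5376 were highest at 1, 12 and 24 h. With a minimum mean of 50, 397 were higher and 608 lower at 12 h and 561 higher at 24 h. Scaled by library totals, 1213 were higher at 12 h and 1587 at 24 h, 805 were higher at every step and 316 lower at every step. The length correction left 1179 higher and 1336 lower at 5 h. With 5 h from replicates 2 to 4, scaled likewise, 1116 were higher and 1208 lower at 5 h, 1235 and 611 at 12 h, 1607 and 637 at 24 h, 2652 and 3882 were highest at 5 and 12 h, and 1511 were higher and 384 lower at every step. Without the 5 h library, 5240 were highest at 1 h and 3920 at 12 h, and 2771 were higher and 2886 lower at every step, there being fewer steps. At a log2 difference of at least 2, 297 were higher and 453 lower at 5 h, 76 and 202 at 12 h, and 111 and 239 at 24 h, 42, 89, 1 and 8 were highest at 1, 5, 12 and 24 h by that margin, and 38 were higher and 108 lower at every step. Beyond the replicate range, 562 were lower at 12 h and 646 at 24 h.

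Of the list medians, late AP-1 genes at 12 h stood at -1.14 without a minimum level, and interferon-stimulated genes at 24 h at 0.86 with a minimum mean of 50. Scaled by library totals, with 5 h from either source, the medians at 12 and 24 h were -0.61 and -0.67 for immediate early genes, -0.60 and -0.37 for late AP-1 genes, -1.11 and -0.96 for sterol and fatty acid synthesis and -0.33 and -0.40 for ribosome biogenesis. Proteases and inhibitors stood at -0.29 at 12 h, and at 24 h SRF and YAP target genes stood at -0.59 and interferon-stimulated genes at 1.27. Scaled by library totals, growth factors and receptors stood at -0.41 at 12 h and -0.36 at 24 h. NRF2 targets and metallothioneins then stood at -0.33 at 12 h, and Wnt genes at 0.72 at 24 h. With 5 h from replicates 2 to 4, the 5 h medians of collagen chains (0.23), integrins and adhesion (0.069) and oxidative phosphorylation (-0.019) took the opposite sign, as did those of glycolysis and hypoxia (0.52), NRF2 targets and metallothioneins (-0.63), SRF and YAP target genes (0.062) and lysosome and autophagy genes (-0.028), which were under 0.5 in size before, and the cause was not tested. Leaving out 795 genes that reach the minimum mean through 1 library only, an alternative added after seeing the data, moved interferon-stimulated genes at 24 h to 0.86. Growth factors and receptors then stood at -0.495 and Wnt genes at 0.505 at 24 h. At 10 normalised counts the counting error alone is 0.72 on the log2 scale for 5 h and 0.59 for 24 h.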
